A study of Homo sapiens with 10 samples.

Results

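LINC RNAs are long noncoding RNAs whose genes carry a numbered LINC symbol, a name given to transcripts annotated between protein-coding genes. The set described here holds the genes typed as lncRNA in GENCODE 44 that have such a symbol and a mean of 20 or more over the 10 libraries. The mean is in normalized counts, the reads of a gene divided by a factor for the depth of the library, so the members were chosen by their measured level. The rule was met by 332 gene IDs, among them LINC00685 and LINC00106, each listed once on X and once on Y with the same reads in all 10 libraries. Counting each of them once left 330 of the 2176 LINC genes in the table, which holds 78894 gene IDs in all. All 330 also passed the filter of the fits, which kept genes that reached 10 in 3 libraries or more.

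The libraries hold poly(A)-selected RNA of HEK293T, an established line derived from human embryonic kidney cells, after 24 h in 1 of 3 media. The media carried no L-cysteine (0X, 2 libraries), the amount of complete medium (1X, 4 libraries) or 10 times that amount (10X, 4 libraries). In the study's protocol with a 10X medium, the media shared a cysteine- and methionine-deficient base with methionine added back. Another starvation protocol of the study took ordinary complete medium as its control, and which of them these libraries followed is not spelled out. The cells of all groups were unedited and of a single line, so the values speak for that line. The number of libraries per medium is not the number of replicates given in the study's text. The labels call the replicates biological without naming separate cultures or days, so the p-values measure the spread between these libraries, which may be partly technical.

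Long intergenic noncoding RNAs are made by RNA polymerase II and are often capped, spliced and polyadenylated like mRNA, but hold no long conserved reading frame. They are on the whole less abundant than mRNA and more restricted to particular tissues. Some act as scaffolds for chromatin or RNA-binding proteins, some are host transcripts of microRNAs, and at some loci the act of transcription bears on a neighbouring gene. For most numbered LINC genes no function is established, and the members are named without one unless it is well known.

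Each library held between 34836014 and 61654861 reads on genes, with a median of 40850704, and 1 read was worth between 0.642 and 1.24 normalized counts. Reads on the 330 LINC RNAs made up 0.240% of the total in 0X, 0.210% in 1X and 0.241% in 10X on average. The markers VIM, KRT8, KRT18, PAX2, NEFM and NEFL, which HEK293T cells express, were all detected, from a mean of 169.7 for PAX2 to 31720.4 for VIM. Of the mature kidney markers UMOD and AQP2 stayed at means of 0.217 and 1.31, and NPHS1 and SLC12A1 at 14.6 and 12.3. PTPRC, PECAM1 and ALB, markers of blood, endothelium and liver, had means of 0.773, 8.84 and 11.0, while COL1A1, a collagen of fibroblasts, was at 769.5.

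The genes did not all lie apart from other genes. Of the 330, 57 overlapped the span of a protein-coding gene, 132 lay within 5 kb of one and 79 more than 50 kb from any, with a median distance of 9908 bases. Exon bases were shared with another annotated gene by 151 members, on the opposite strand in 133 of them and on the same strand in 44. The largest sharing was with another lncRNA gene in 88, with a protein-coding gene in 29 and with a pseudogene in 29, and 6 members shared at least 50% of their exon bases. A further mark was drawn from the genome sequence: in 81 members over 5% of the 75-base exon windows, the length of a read, had another exact copy in GRCh38, and in 28 members at least 50% did. Sharing no exon bases and having at most 5% of windows copied left 145 members, called clean from here on. The library kit marks strand, but the strand setting of the counting is not given in the sources used here. Reads of a member and of a gene across it therefore cannot be told apart here. The study's methods left out reads that overlap several genes, so how many reads remain on shared bases is not known.

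Levels over the 10 libraries ran from a mean of 20.0 to 11557 normalized counts with a median of 84.3. There were 149 members at 100 or more and 16 at 1000 or more, while 108 lay between 20 and 50. The median member had 3309 exon bases, 3 exons in its longest transcript and a GC content of 47.7%, and 48 members had a single exon. Chromosome 1 held 50 members and chromosome 2 held 26. In every group 283 members reached 20, and 47 fell under it in some group. The 9 members at 20 or more in only 1 group all had it in 10X, and their difference between media follows in part from the way they were chosen. They include LINC01512, LINC02334, LINC03080 and LINC00622, whose values in 10X are given as a description with no test. Just inside the limit were LINC02809 at 20.0, LINC02939 at 20.3 and LINC02664 at 20.6, and just outside it LINC02481 at 19.7, LINC02352 at 19.6 and LINC02212 at 19.6.

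LINC02067 (ENSG00000240567; chr3:161426427-161448242, plus strand) had the highest level, with 11805 and 12553 in 0X, 11129, 10562, 10439 and 10705 in 1X, and 11528, 11747, 11861 and 13238 in 10X. It shared 119 of its 2845 exon bases with RPL23AP42, a processed pseudogene of the ribosomal protein gene RPL23A, on the opposite strand. RPL23AP42 had a mean of 15017 and RPL23A itself 36007, so the level of LINC02067 cannot be separated from reads of that family. LINC00115 came next, with 5535 and 5648 in 0X, 3942, 4157, 3967 and 4126 in 1X, and 4178, 4379.6, 4399.5 and 4309 in 10X. It shared 507 bases with LINC01128 on the other strand and 28.9% of its windows had a copy. LINC02693 followed at a mean of 4089.8, LINC00205 at 2481, LINC01001 at 2256, LINC01002 at 2241, LINC00641 at 1898 and LINC00342 at 1833. LINC01001 and LINC01002 had copies of 84.2% and 91.2% of their windows, so their reads may be shared with near-identical loci. LINC00205 and LINC00641 shared no exon bases and had no copied window.

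Per kilobase of exon, the scale on which genes of different length can be compared, the median member had 34.7 normalized counts. LINC02067 had 4062, LINC00115 1348, LINC01126 763, LINC02585 757 and LINC02259 653. LINC02259 shared exon bases with another gene, and 37.0% of its windows had a copy. LINC01126, a single-exon gene 604 bases from ZFP36L2, which encodes an mRNA decay factor, and LINC02585, of only 196 exon bases, shared none with another gene. The levels per kilobase ran from 1.498 to 4062, with shared and unshared members along the whole range.

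**Figure D1:**
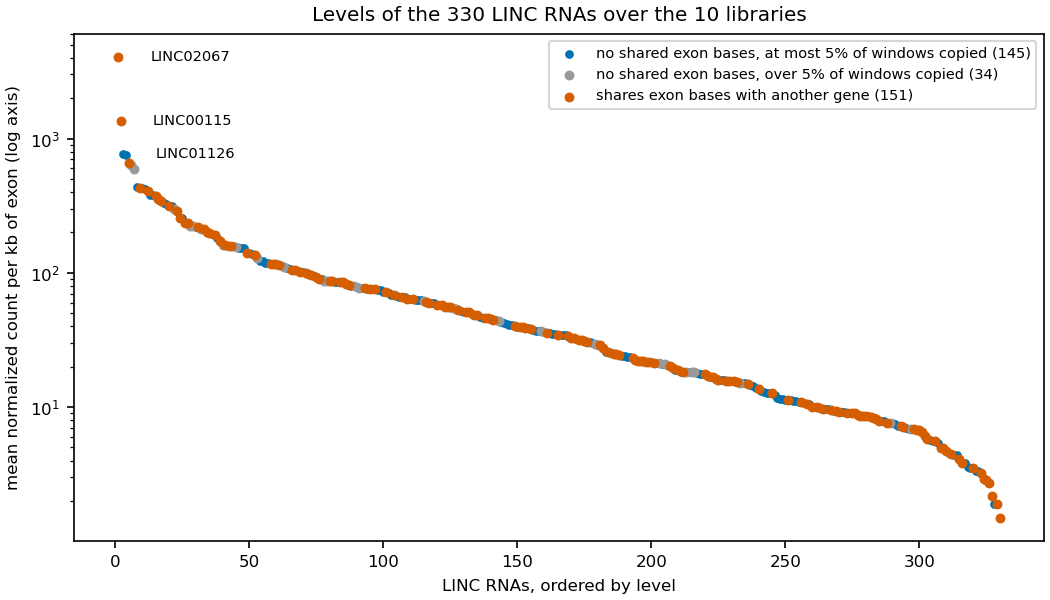
Mean normalized count per kilobase of exon (log axis) of the 330 LINC RNAs, ordered from the highest to the lowest, each point a gene averaged over the 10 libraries. Colours mark the 151 that share exon bases with another gene, the 34 that do not but have over 5% of windows copied, and the 145 with neither mark, and LINC02067 stands highest at 4062.

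In cysteine-free medium 39 LINC RNAs rose and 10 fell. Compared with 1X, and among members called without overlap of the groups, LINC02182, LINC00663, LINC02076, LINC01277, LINC02806 and LINC02245 rose the most in 0X, and LINC01619, LINC01315, LINC01018 and LINC00641 fell the most. In bulk RNA, fewer cells making a transcript and less of it per cell cannot be told apart. With limma on log2 of the value plus 1, 49 of the 330 (14.8%) passed an adjusted p of 0.01, against 15.9% of the 29045 genes tested. Of these 39 were higher and 10 lower in 0X, where 7.39% of all genes were called higher and 8.51% lower. The median log2 fold change was 0.23 over the 330 and 0.00 over all genes tested, and 0.21 over the 283 members that reached 20 in every group. A change of at least 2-fold was called for 14 members, 12 of them higher and 2 lower, against 2.10% of all genes, 1.44% higher and 0.661% lower. The groups did not overlap for any of the 49, nor for 4617 of the 4618 genes called among all tested. Called or not, they did not overlap for 46.9% of all genes, since a group of 2 separates easily. Among members that share no exon bases 19 were called higher and 2 lower, and among the 145 clean members 12 and 2. The 0X group has 2 libraries: without replicate 1 of 0X 12 members were called, without replicate 2 11, and without replicate 1 of 1X 32, while 4 were called with no filter on low values. Of the 25 named changes in 0X, 7 kept their call whichever library was left out, those of LINC00467, LINC00641, LINC00858, LINC01018, LINC01569, LINC02182 and LINC02245. Without replicate 1 of 0X 16 of the 25 calls were lost, without replicate 2 of 0X 17, and without replicates 1, 2 and 4 of 1X 10, 9 and 3.

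LINC02182 (ENSG00000260420; chr16:88186605-88195217, plus strand) had the largest rise in 0X. It had 75.2 and 76.3 in 0X, 5.25, 6.18, 6.09 and 11.0 in 1X, and 82.2, 72.8, 62.3 and 97.7 in 10X. Both 0X libraries and all 10X libraries lay far above the 1X libraries, among which replicate 4 was the highest. The log2 fold change was 3.29 ± 0.41 (SE), adjusted p = 8.63e-05. It has 647 exon bases, 26.5% of its windows had a copy elsewhere, and it shared bases only with an lncRNA gene without a symbol at a mean of 0.338.

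LINC02245 (ENSG00000237638; chr2:64901840-65056226, minus strand) is a spliced RNA whose span overlaps that of SLC1A4, on the other strand and without shared exon bases. SLC1A4 encodes a transporter of alanine, serine, cysteine and threonine. LINC02245 had 767 and 779.8 in 0X, 341, 329.8, 337 and 299.6 in 1X, and 1163, 1146, 1198 and 1171 in 10X. No 2 groups overlapped and 1X was the lowest. Its log2 fold change in 0X was 1.24 ± 0.10 (SE), adjusted p = 2.51e-06. SLC1A4 had means of 3913 ± 36.7 (SD, n = 2), 1401 ± 61.6 (SD, n = 4) and 7165 ± 121 (SD, n = 4) in 0X, 1X and 10X.

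LINC02806 had 115 and 98.2 in 0X, 47.3, 38.3, 39.6 and 49.4 in 1X, and 139.9, 129, 151 and 175 in 10X. The 1X libraries were the lowest and the log2 fold change in 0X was 1.27 ± 0.23 (SE), adjusted p = 0.00119. It shares exon bases with LINC01138. LINC00638, a single-exon gene with no shared bases or copied windows, had 166 and 194 in 0X, 94.5, 96.4, 114 and 97.7 in 1X, and 190.0, 190.1, 182 and 176 in 10X. All 0X and 10X libraries lay above the 1X libraries, and the log2 fold change in 0X was 0.83 ± 0.17 (SE), adjusted p = 0.00246.

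LINC00663, LINC02076, LINC01277, LINC01144 and LINC01140 also rose at least 2-fold in 0X. LINC00663 had means of 73.1 ± 9.33 (SD, n = 2) in 0X and 24.9 ± 8.04 (SD, n = 4) in 1X, and LINC01277 66.7 ± 28.05 (SD, n = 2) and 24.8 ± 1.99 (SD, n = 4). LINC02076 had means of 141 ± 9.84 (SD, n = 2) and 53.8 ± 8.19 (SD, n = 4), and 73.0% of its windows had a copy. LINC01144, with 78.6 and 75.2 in 0X and 34.7, 32.1, 30.5 and 32.9 in 1X, shared 131 bases with ZSWIM5, a protein-coding gene across it. LINC01140, with 64.9 and 82.9 and 37.8, 24.7, 38.6 and 30.7, shared 1168 bases with a protein-coding gene that has no symbol. The calls of these 5 were each lost when some single library was left out.

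LINC00641 (ENSG00000258441; chr14:21200079-21206900, minus strand) had the largest loss in reads among the members that fell in 0X. It had 1122 and 1247 in 0X, 2345, 2445, 1984 and 2465 in 1X, and 1819, 1869, 1824 and 1857 in 10X. Both 0X libraries were below every other library, and 10X lay between 0X and 1X without overlap. The log2 fold change was -0.96 ± 0.089 (SE), adjusted p = 6.7e-06. It has 5715 exon bases, none shared or copied, and its neighbour HNRNPC, which encodes a nuclear RNA-binding protein, lies 2236 bases away on the same strand. HNRNPC differed by a log2 fold change of -0.032 ± 0.051 (SE), adjusted p = 0.69.

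LINC01315 had 54.7 and 37.1 in 0X, 92.4, 119.8, 99.5 and 88.9 in 1X, and 38.5, 26.1, 58.0 and 48.4 in 10X. The 1X libraries were the highest, and the 0X and 10X libraries ranged over the same values. The log2 fold change in 0X was -1.13 ± 0.23 (SE), adjusted p = 0.00236, and it shares no bases. LINC01619 had 28.5 and 16.4 in 0X, 59.9, 72.9, 91.4 and 61.4 in 1X, and 35.9, 47.8, 40.1 and 40.8 in 10X. The log2 fold change was -1.66 ± 0.29 (SE), adjusted p = 0.000949, the largest fall among the members called in 0X. No 2 media overlapped, and 1X was the highest. It shares 503 bases with BTG1, a gene that restrains proliferation, whose log2 fold change was 0.11 in 0X and 1.30 in 10X, in neither case the direction of LINC01619.

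LINC01018 had 222 and 262 in 0X, 462, 518, 459 and 478 in 1X, and 284, 284, 291 and 297 in 10X. The media did not overlap, with 1X the highest and 0X the lowest. Its log2 fold change was -0.99 ± 0.11 (SE), adjusted p = 3.52e-05. It shares 112 bases with NSUN2, an RNA cytosine methyltransferase, which had a mean of 7171 in 1X and changed by -0.90 in 0X and -0.74 in 10X beside -0.99 and -0.73 for LINC01018. LINC01311 and LINC02202 fell from 175 ± 23.2 (SD, n = 4) to 100.3 ± 0.0749 (SD, n = 2) and from 263 ± 11.0 (SD, n = 4) to 161 ± 29.0 (SD, n = 2). Both share exon bases with another gene. LINC01106 and LINC01123 fell by 0.39 and 0.34 on the log2 scale. They are near-copies of each other, with 92.4% and 93.5% of windows copied, each across a ZBTB45 pseudogene, and count as a single uncertain observation.

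**Figure D2:**
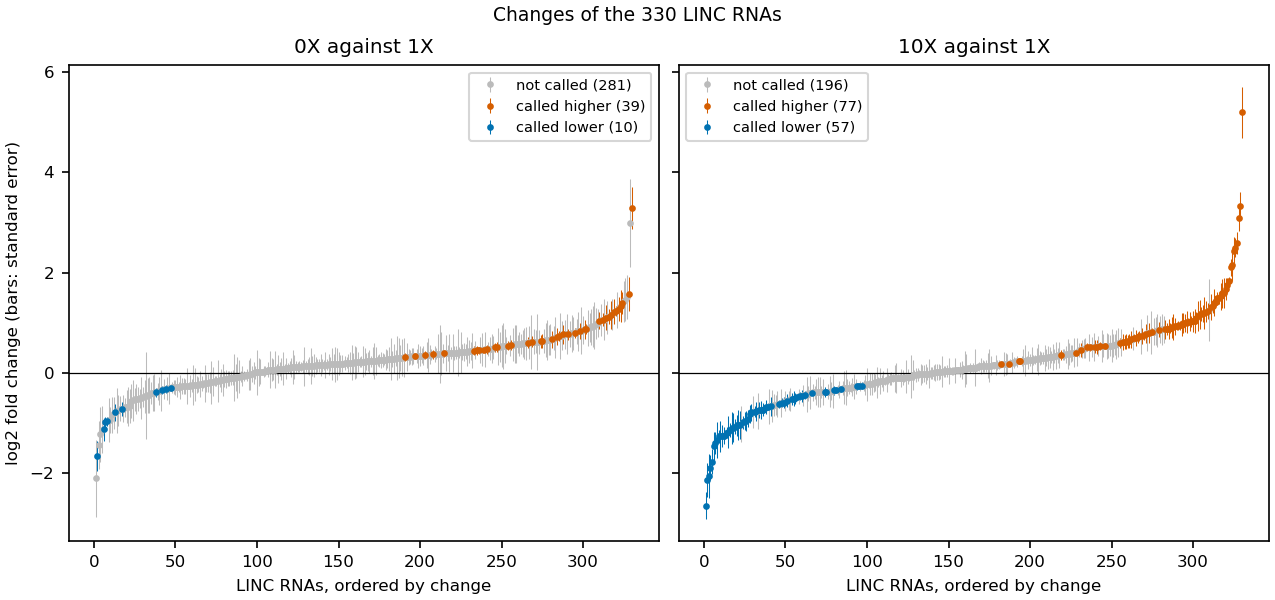
Log2 fold change of each of the 330 LINC RNAs with its standard error, ordered by change, for 0X against 1X (left) and 10X against 1X (right). Coloured points passed an adjusted p of 0.01, 39 higher and 10 lower in 0X and 77 higher and 57 lower in 10X, and LINC01512 is the highest point at right with 5.19.

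In excess cysteine 77 LINC RNAs rose and 57 fell, from a comparison of 4 libraries against 4. Among members called without overlap LINC01512, LINC02182, LINC02334, LINC02154, LINC00304, LINC00622, LINC03080 and LINC01411 had the largest rises in 10X compared with 1X. Of these LINC01512, LINC02334, LINC00622 and LINC03080 are listed as a description, since they met the mean of 20 only through 10X. LINC01297, LINC02361, LINC00173, LINC01770, LINC01237, LINC02606, LINC02891 and LINC01424 had the largest falls. Of the 330, 134 passed (40.6%), against 46.0% of all genes tested. There were 77 higher and 57 lower in 10X, with 23.1% and 22.9% of all genes. The median log2 fold change was 0.11 over the 330 and 0.01 over all genes. At least 2-fold changes were called for 56 members, 34 higher and 22 lower, against 10.1% of all genes, 6.39% higher and 3.74% lower. The groups did not overlap for 130 of the 134, and for 12974 of the 13372 genes called among all tested, which is 44.7% of all genes. Among members with no shared bases 37 were higher and 33 lower, and among the clean members 30 and 25. With every library scaled to an equal total the median of all genes moved from 0.01 to 0.12, and 97 members were called higher and 45 lower, so that the share of higher calls was 68.3% in place of 57.5%. With no filter on low values 76 were called. Among the 283 members at 20 or more in every group 111 were called, 64 higher and 47 lower. Changes of at least 2-fold were called for 34 of them, 22 higher and 12 lower. This comparison and that of 0X share the 1X libraries, so their changes are not independent of each other.

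LINC01512 (ENSG00000289313; chr6:43891045-43938212, plus strand) had the largest rise of all. It had 14.8 and 16.4 in 0X, 2.10, 0, 5.08 and 0 in 1X, and 64.8, 88.0, 78.5 and 71.4 in 10X. It was near absent in 1X, where no library held more than 5.08, low in 0X and present in every 10X library. It met the mean of 20 only through 10X, so its log2 fold change there, 5.19 ± 0.51 (SE), carries no test, and it is a value that depends on the added 1 at so low a level. In 0X it was 2.99 ± 0.88 (SE), adjusted p = 0.022, short of the threshold. It has 2270 exon bases, none shared or copied. The nearest protein-coding gene is VEGFA, which encodes a vascular growth factor, 104558 bases away. VEGFA was looked at after its values were seen, and had means of 5679 ± 211 (SD, n = 2), 2769 ± 108 (SD, n = 4) and 6840.0 ± 180.3 (SD, n = 4) in 0X, 1X and 10X.

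LINC02334 had 20.5 and 7.63 in 0X, 11.6, 7.41, 8.12 and 5.49 in 1X, and 88.6, 81.5, 58.9 and 73.1 in 10X. Each 10X library was above every other, while the 0X and 1X libraries overlapped. The log2 fold change in 10X was 3.09 ± 0.27 (SE). LINC02154, on chromosome X, had 41.0 and 32.7 in 0X, 29.4, 14.8, 20.3 and 15.4 in 1X, and 123, 124, 99.0 and 143 in 10X, with a log2 fold change of 2.59 ± 0.22 (SE), adjusted p = 3.36e-08. It too was higher in each 10X library than in any other, and neither gene shares exon bases.

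LINC01411 had 14.8 and 31.6 in 0X, 35.7, 29.6, 30.5 and 24.1 in 1X, and 126, 129, 120.3 and 150.4 in 10X. LINC03080 had 0 and 4.36 in 0X, 11.6, 14.8, 4.06 and 8.78 in 1X, and 43.7, 44.5, 38.4 and 47.6 in 10X. In both the 10X libraries stood apart from all others, with log2 fold changes of 2.11 ± 0.17 (SE) and 2.16 ± 0.33 (SE), and an adjusted p of 1.46e-08 for LINC01411. LINC00622 had means of 12.7 ± 6.42 (SD, n = 4) in 1X and 68.0 ± 5.04 (SD, n = 4) in 10X, with 47.9% of its windows copied. LINC00304 rose from 22.8 ± 5.14 (SD, n = 4) to 131 ± 12.9 (SD, n = 4), a log2 fold change of 2.495 ± 0.19 (SE), adjusted p = 7e-09. It shares 1175 bases with ACSF3, which encodes a mitochondrial malonyl-CoA synthetase and changed by 0.68 in 10X and 0.69 in 0X, where LINC00304 differed by -0.67 and was not called.

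LINC02182 and LINC02245, described above, rose in 10X by log2 fold changes of 3.32 ± 0.28 (SE) and 1.84 ± 0.065 (SE), beside 3.29 and 1.24 in 0X. LINC02806 rose by 1.75 and LINC00638 by 0.87, beside 1.27 and 0.83. Compared directly, 10X and 0X differed by 0.60 ± 0.059 (SE), adjusted p = 4.6e-09, for LINC02245 and by 0.47 ± 0.15 (SE), adjusted p = 0.00974, for LINC02806, both higher in 10X. For LINC02182 the difference of 0.036 ± 0.20 (SE) and for LINC00638 that of 0.037 ± 0.12 (SE) did not pass.

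The promoters of LINC01512, the member with the largest rise, of LINC01411, which holds a TGACNNNGC match, and of LINC02806 are shown as windows of 250 bases before to 50 after the RefSeq start in GRCh38.p14, read 5′ to 3′. Capitals mark the motifs searched on either strand: TGATGNAA (the core of composite elements of ATF4 and C/EBP factors), TGACNNNGC (the core of antioxidant response elements), CACGTG (the E-box), CCAAT (the box bound by NF-Y), GGGCGG (the GC box) and TATAAA (the TATA box). The window of LINC01512 (chr6:43890778-43891077, plus strand) has its RefSeq start 17 bases from the GENCODE 5′ end and holds a GC box. That of LINC01411 (chr5:174336104-174336403, plus strand) holds 1 TGACNNNGC match on its reverse strand. That of LINC02806 (chr1:148279018-148279317, plus strand), whose RefSeq start lies 15912 bases upstream of the GENCODE start, is the only window among the named members with TGATGNAA, on the reverse strand, and also holds 2 CCAAT and 1 TATAAA.
LINC01512: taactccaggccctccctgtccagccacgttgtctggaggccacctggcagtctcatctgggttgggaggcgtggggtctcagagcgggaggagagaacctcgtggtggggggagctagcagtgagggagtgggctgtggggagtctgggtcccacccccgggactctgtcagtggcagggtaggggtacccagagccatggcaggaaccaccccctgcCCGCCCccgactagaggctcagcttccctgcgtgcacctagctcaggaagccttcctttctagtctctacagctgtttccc
LINC01411: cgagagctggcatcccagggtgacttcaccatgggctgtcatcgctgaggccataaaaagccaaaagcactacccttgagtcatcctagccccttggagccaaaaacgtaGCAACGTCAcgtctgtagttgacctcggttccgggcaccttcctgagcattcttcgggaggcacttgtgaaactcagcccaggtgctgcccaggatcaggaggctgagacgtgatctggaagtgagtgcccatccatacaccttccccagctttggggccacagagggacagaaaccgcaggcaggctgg
LINC02806: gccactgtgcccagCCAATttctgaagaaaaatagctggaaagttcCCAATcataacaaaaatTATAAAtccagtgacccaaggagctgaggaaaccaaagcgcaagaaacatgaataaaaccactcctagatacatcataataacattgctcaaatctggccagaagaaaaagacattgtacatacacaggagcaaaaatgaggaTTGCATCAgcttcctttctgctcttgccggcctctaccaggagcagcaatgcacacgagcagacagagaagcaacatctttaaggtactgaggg

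Among the members that fell in 10X, LINC02361 had 66.1 and 55.6 in 0X, 26.3, 42.0, 35.5 and 30.7 in 1X, and 10.9, 4.35, 8.53 and 5.10 in 10X. Every 10X library was below every other, with replicate 2 the lowest, and the log2 fold change was -2.13 ± 0.34 (SE), adjusted p = 4.21e-05. LINC01770 had 67.2 and 74.2 in 0X, 128, 98.8, 103 and 132 in 1X, and 49.4, 21.7, 37.6 and 20.4 in 10X, falling by a log2 fold change of -1.89 ± 0.25 (SE), adjusted p = 4.88e-06. LINC01237 had 108 and 101 in 0X, 64.1, 61.8, 81.2 and 80.1 in 1X, and 32.7, 13.0, 20.5 and 18.7 in 10X, a log2 fold change of -1.77 ± 0.25 (SE), adjusted p = 1.31e-05. For all 3 the 10X libraries were the lowest, none shares exon bases and at most 1.33% of windows were copied. In 0X the same genes differed by 0.85, -0.69 and 0.55 on the log2 scale and were not called.

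LINC00173 and LINC02606 fell to 10.9 ± 7.29 (SD, n = 4) and 12.7 ± 2.89 (SD, n = 4) in 10X from 39.6 ± 2.17 (SD, n = 4) and 36.4 ± 7.91 (SD, n = 4) in 1X. LINC00173 was uneven elsewhere too, with 67.2 and 26.2 in the 0X libraries. LINC02891 fell from 69.8 ± 11.0 (SD, n = 4) to 26.2 ± 6.91 (SD, n = 4). LINC01297, at 65.1, 74.1, 67.0 and 77.9 in the 1X libraries, fell to 11.1 ± 4.17 (SD, n = 4), with 70.0% of its windows copied. LINC01424, a single-exon gene, had 205 and 188 in 0X, 223, 206, 249.7 and 259 in 1X, and 114, 80.4, 98.1 and 96.9 in 10X. The 10X libraries lay below all others, with a log2 fold change of -1.27 ± 0.13 (SE), adjusted p = 2.29e-07. Of the most abundant members LINC00205 fell, with 2843 and 2835 in 0X, 2679, 2876, 2725 and 2875 in 1X, and 1941, 1962, 2101 and 1972 in 10X and a log2 fold change of -0.48 ± 0.047 (SE), adjusted p = 1.37e-07. LINC02693 rose only in the direct comparison of 10X with 0X, by 0.42 ± 0.051 (SE), adjusted p = 1.12e-07, after a fall in 0X of -0.30 ± 0.054 (SE), adjusted p = 0.001.

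**Figure D3:**
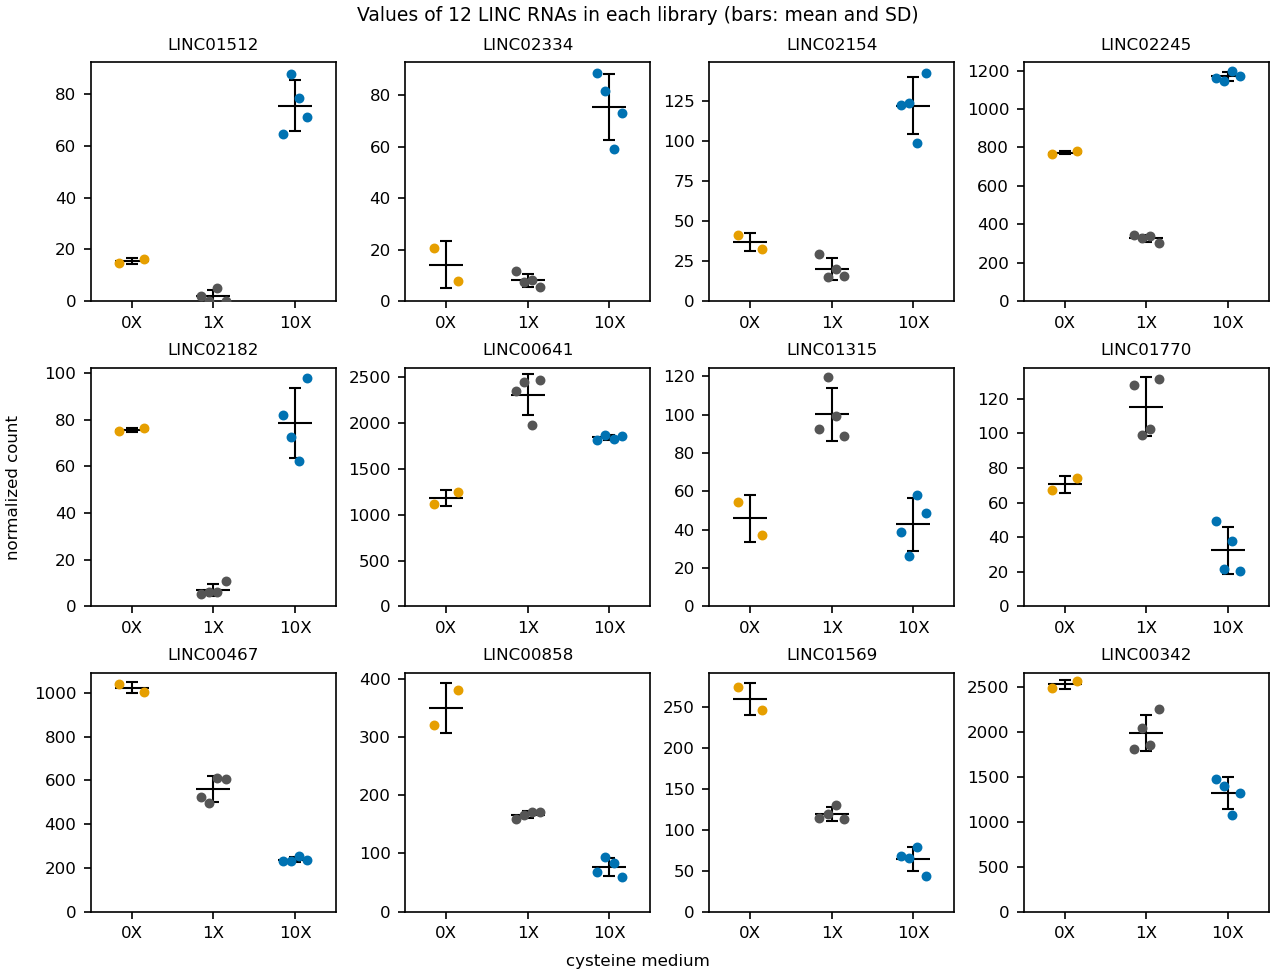
Normalized counts of 12 LINC RNAs in each library (points) with the mean and SD of each medium (bars), on axes that start at 0. LINC01512, LINC02334 and LINC02154 are high in 10X only, LINC02245 and LINC02182 are lowest in 1X, LINC00641, LINC01315 and LINC01770 are highest in 1X, and the bottom row falls from 0X through 1X to 10X.

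Some LINC RNAs fell in steps from 0X through 1X to 10X. LINC00467 (ENSG00000153363; chr1:211382736-211435570, plus strand) had 1043 and 1007 in 0X, 523, 498, 613 and 607 in 1X, and 229.8, 233, 254 and 235 in 10X. No 2 media overlapped. Its log2 fold changes were 0.88 ± 0.10 (SE), adjusted p = 4.52e-05, in 0X and -1.23 ± 0.087 (SE), adjusted p = 3.18e-09, in 10X, and 10X was below 0X by -2.10 ± 0.087 (SE), adjusted p = 3.91e-16. It shares no exon bases and 2.28% of its windows were copied.

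LINC00858 had 320.0 and 381 in 0X, 159, 167, 171 and 171 in 1X, and 68.7, 94.5, 82.8 and 59.5 in 10X, with log2 fold changes of 1.06 in 0X (adjusted p = 7.98e-05) and -1.14 in 10X (adjusted p = 4e-06). LINC01569 had 274 and 246 in 0X, 114, 119.8, 131 and 113 in 1X, and 68.0, 65.2, 79.4 and 44.2 in 10X, with 1.12 (0.000131) and -0.92 (0.000204). LINC01419 had 282 and 253 in 0X, 128, 124, 158 and 112 in 1X, and 62.9, 78.2, 46.1 and 82.4 in 10X, with 1.04 (0.000456) and -0.97 (0.000217). In each of these 3 the media were ordered without overlap, and 10X was below 0X by log2 fold changes of -2.20, -2.03 and -2.01.

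LINC00461, LINC00342 and LINC00339 followed the same order at smaller changes. LINC00342 had 2497 and 2570.5 in 0X, 1815, 2043, 1856 and 2259 in 1X, and 1482, 1406, 1080.5 and 1321 in 10X, and LINC00339, which shares 1140 bases with CDC42-AS1, had means of 587, 398 and 294. LINC01128 went the other way, with 1317 and 1230.2 in 0X, 1548, 1544, 1558 and 1711 in 1X, and 2061, 2179, 2098 and 2085 in 10X and log2 fold changes of -0.32 in 0X and 0.41 in 10X. It lies across LINC00115, which was highest in 0X and whose log2 fold changes were 0.47 and 0.093. All 8 were called in the direct comparison of 10X with 0X, which their choice by calls in opposite directions made likely beforehand. Without a filter on low values 23 of the 25 named changes in 0X and 8 of the 31 in 10X were lost. The call of LINC00339 in 10X was lost without replicate 1 of 1X. The 31 include LINC01512, LINC02334, LINC00622 and LINC03080, which are listed only as a description.

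In that direct comparison 158 members passed (47.9%), against 48.0% of all genes. Of these 68 were higher and 90 lower in 10X, where 24.4% and 23.6% of all genes were, with a median of -0.11 over the 330 and 0.00 over all genes, and with equal totals 84 were higher and 81 lower with a median of -0.03. At least 2-fold changes were called for 71 members, 28 higher and 43 lower, against 12.4% of all genes, 7.01% higher and 5.42% lower. Among the 283 at 20 or more in every group there were 46, 16 higher and 30 lower. Beside the genes named above, LINC03080 and LINC00622 had the widest gaps, with log2 fold changes of 4.26 and 3.66.

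The promoters of a member that fell in 0X and of one in the stepwise order are shown for comparison, with the same marks. The window of LINC00641 (chr14:21206851-21207150, minus strand) has its RefSeq start at the GENCODE 5′ end and holds 1 CCAAT on its reverse strand and no GC box. The window of LINC01569 (chr16:4253740-4254039, minus strand) has its RefSeq start 58 bases from the GENCODE 5′ end and holds 3 GC boxes on the reverse strand and no other motif searched.
LINC00641: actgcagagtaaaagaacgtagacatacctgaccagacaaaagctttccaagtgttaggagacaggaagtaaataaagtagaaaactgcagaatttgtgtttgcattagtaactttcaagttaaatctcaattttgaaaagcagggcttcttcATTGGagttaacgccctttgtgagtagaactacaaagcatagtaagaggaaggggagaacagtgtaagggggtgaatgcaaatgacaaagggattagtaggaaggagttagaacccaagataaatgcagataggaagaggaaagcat
LINC01569: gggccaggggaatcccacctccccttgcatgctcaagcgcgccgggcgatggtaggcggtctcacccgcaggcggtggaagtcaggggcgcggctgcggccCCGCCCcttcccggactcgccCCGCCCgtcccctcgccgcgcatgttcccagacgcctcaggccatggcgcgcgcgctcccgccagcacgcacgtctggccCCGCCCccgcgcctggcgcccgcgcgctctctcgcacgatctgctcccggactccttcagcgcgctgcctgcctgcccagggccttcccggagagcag

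RefSeq promoters were found for 232 of the 330 members by symbol, chromosome and strand, 136 of them within 100 bases of the GENCODE 5′ end. TGATGNAA was in 3.02% of these and in 3.62% of all 35116 promoters of the table, TGACNNNGC in 16.8% and 13.3%, CACGTG in 8.19% and 7.26%, CCAAT in 39.2% and 34.6%, GGGCGG in 45.3% and 45.0%, and TATAAA in 11.6% and 11.5%. Of the 57 matched members higher in 10X 13 held TGACNNNGC and 21 GGGCGG, and of the 40 lower in 10X 7 and 23 did. No difference between these sets was tested. Of the 24 matched members higher in 0X 1 held TGATGNAA, that of LINC02806, and of the 7 lower in 0X none did. A match is a run of letters and not a bound site.

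Small RNA genes lay inside 6 members. LINC00461 (chr5:88507546-88691057, minus strand) is the host of MIR9-2, a microRNA gene of neural tissue, and LINC00472 (chr6:71187161-71420745, minus strand), looked at after its values were seen, of MIR30A and MIR30C2. The mature sequences are printed because the poly(A) libraries measure the host and not these products, and capitals mark the seed, bases 2 to 8, that pairs with target mRNAs. The 5p arms of both miR-30 genes share a seed, and miR-9 has another.
hsa-miR-9-5p: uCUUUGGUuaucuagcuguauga
hsa-miR-9-3p: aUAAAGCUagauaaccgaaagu
hsa-miR-30a-5p: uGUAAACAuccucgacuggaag
hsa-miR-30c-5p: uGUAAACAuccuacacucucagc

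The mature miR-9-5p lies at chr5:88666902-88666924, minus strand, miR-30a-5p at chr6:71403595-71403616, minus strand and miR-30c-5p at chr6:71377003-71377025, minus strand, all in GRCh38.p14. LINC00461 had 171 and 155 in 0X, 99.8, 111, 101 and 96.6 in 1X, and 61.0, 65.2, 45.2 and 74.8 in 10X. The media did not overlap, and the log2 fold changes were 0.67 ± 0.16 (SE), adjusted p = 0.0081, in 0X and -0.74 ± 0.17 (SE), adjusted p = 0.00103, in 10X. LINC00472 had 691 and 756 in 0X, 628, 578, 542 and 449 in 1X, and 1017, 1052, 1021 and 1102 in 10X. The 10X libraries were the highest, with a log2 fold change of 0.94 ± 0.085 (SE), adjusted p = 6.11e-08, while that in 0X, 0.41 ± 0.12 (SE), adjusted p = 0.0229, did not pass. LINC00461 shares 614 bases with MEF2C-AS2 and LINC00472 949 with OGFRL1.

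A protein-coding gene with a tested value lay within 5 kb of 70 members that share no exon bases. In 10X 23 of these members and 40 of their neighbours were called, and both in 15 pairs, of which 13 went the same way, where 46.0% of all genes tested were called. Across the 70 pairs Pearson's r of the log2 fold changes was 0.54 and Spearman's rho 0.50, a description over genes that share libraries. Whether more pairs were called together than these counts alone give was not tested. In 0X, where 15.9% of all genes and 24.5% of those protein-coding genes were called, 7 members and 15 neighbours were. Both were called in 2 pairs, LINC02245 with SLC1A4 and LINC01277 with AIG1, and r was 0.29. LINC01277 changed by 1.33 and AIG1, 814 bases away, by 0.38.

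In 10X the pairs that rose together had LINC02245 with SLC1A4 at log2 fold changes of 1.84 and 2.35, LINC01725 with TTLL7, a tubulin polyglutamylase, at 1.01 and 1.25, LINC01964 with KCMF1 at 0.95 and 0.95, and LINC02977 with SUSD1 at 1.10 and 0.73. LINC01424 fell with UBE2G2, a ubiquitin-conjugating enzyme whose gene starts 57 bases away, at -1.27 and -0.48, and LINC00342 with ANKRD36C at -0.60 and -0.65. LINC00685 and LINC00106, in the region shared by X and Y, fell with GTPBP6 and ASMTL, at -1.33 and -0.84 and at -0.68 and -0.84. LINC00857 and ANXA11, an annexin, went opposite ways, at 0.63 and -0.55, as did LINC01719 and NBPF10. LINC00205 fell while POFUT2, 137 bases away, differed by -0.024 ± 0.050 (SE) and was not called. TMEM88B beside LINC01770 and SRL beside LINC01569 were not called either, at -0.31 ± 0.39 (SE) and -0.57 ± 0.43 (SE). Their means in 1X were only 11.9 and 19.5, so a fall of these neighbours could have been missed. The pairs of this paragraph that no rule on size or neighbours had named, those of LINC01725, LINC01964, LINC02977, LINC00685, LINC00106, LINC00857 and LINC01719, were picked after their values were seen.

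**Figure D4:**
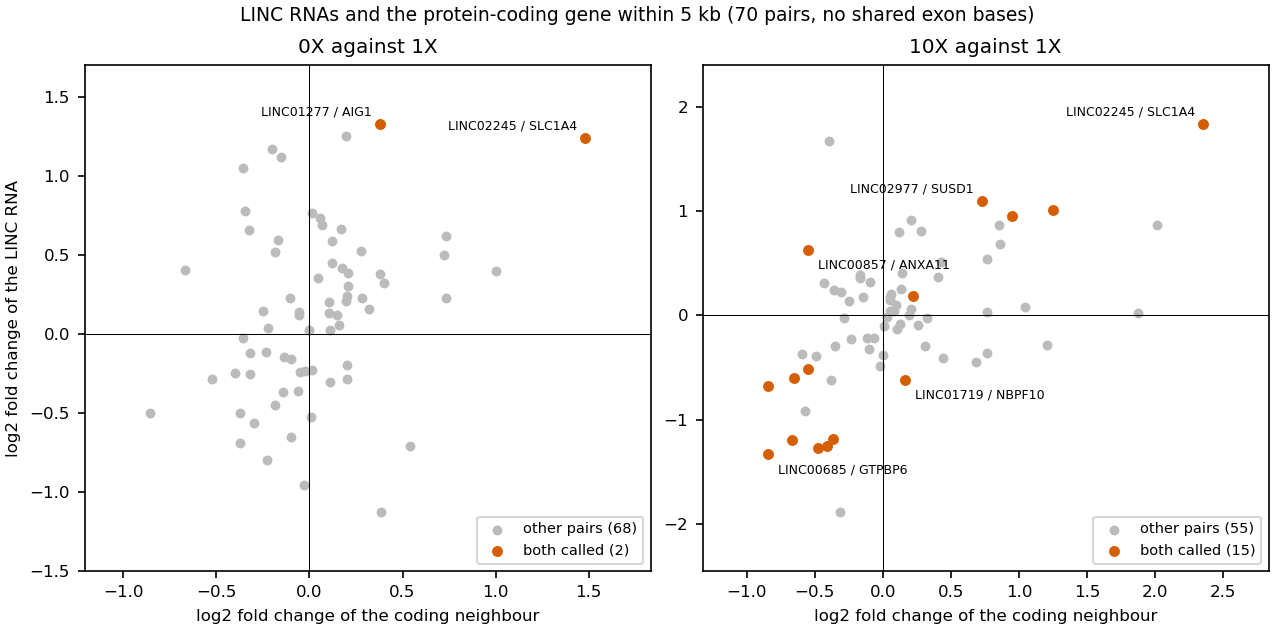
Log2 fold change of 70 LINC RNAs (vertical axis) against that of the protein-coding gene within 5 kb (horizontal axis), for 0X against 1X (left) and 10X against 1X (right). Orange marks the pairs with both genes called, 2 in 0X and 15 in 10X, of which 13 lie in the quadrants of equal sign.

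Set beside other classes of the same minimum level, the LINC RNAs had 39 higher and 10 lower calls in 0X, antisense RNAs (symbols in -AS) 81 and 32 of 928, divergent transcripts (symbols in -DT) 26 and 10 of 358, and other named lncRNAs 56 and 24 of 430. Unnamed lncRNAs had 153 and 129 of 3082, and protein-coding genes 1552 and 2041 of 14643. The median log2 fold changes in 0X were 0.23 for LINC RNAs, 0.05 for antisense, 0.14 for divergent, 0.07 for other named and 0.03 for unnamed lncRNAs and -0.02 for protein-coding genes. In 10X the calls were 77 and 57 for LINC RNAs, 191 and 202 for antisense, 41 and 92 for divergent, 127 and 84 for other named and 636 and 518 for unnamed lncRNAs, and 4373 and 4835 for protein-coding genes. The difference between classes was not tested.

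**Figure D5:**
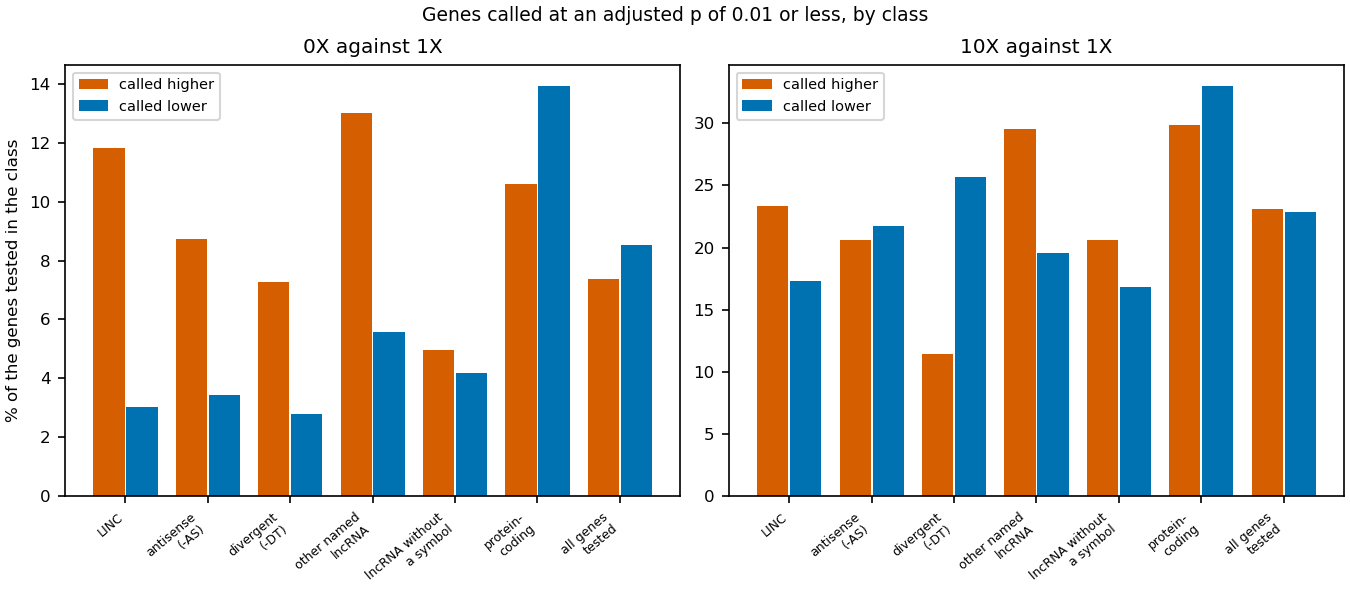
Percent of the tested genes of each class called higher (orange) or lower (blue) at an adjusted p of 0.01, for 0X against 1X (left) and 10X against 1X (right), from a mean level of 20 except for the last pair of bars, all genes tested. In 0X the bars of the 5 lncRNA classes are taller for higher than for lower calls, and those of protein-coding genes are not.

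Of 20 well known lncRNAs, 19 were tested, since MEG3 stayed at a mean of 0.348. In 0X 10 were called, 8 of them higher, with a median of 0.27, and in 10X 15, 13 of them higher, with a median of 0.38. All genes tested were called in 15.9% and 46.0%, and those at 300 or more, where most of these RNAs lie, in 27.4% and 66.2%. MALAT1, a nuclear speckle RNA, and NEAT1, the scaffold of paraspeckles, rose in 0X by 0.69 and 0.72 on the log2 scale and were not called in 10X. GAS5 and ZFAS1, hosts of small nucleolar RNAs, rose by 0.60 and 1.02 in 10X. KCNQ1OT1, the imprinted antisense RNA, fell by 0.42 in 0X and by 1.05 in 10X. In 0X the rise of LINC02182 was wider than any change of these RNAs, but it was picked as the largest among the members.

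Precision followed the level. In 0X the median standard error was 0.36 for the 108 members between 20 and 50 and 0.10 for the 72 members at 300 or more. At 300 or more 29 members (40.3%) were called in 0X, against 27.4% of all genes at that level, and 39 (54.2%) in 10X, against 66.2%. Between 20 and 50 there were 7 (6.48%) in 0X, against 3.07% of all genes, and 30 (27.8%) in 10X, against 23.0%. A low member that was not called may still differ by an amount this depth and number of libraries cannot show. The coefficient of variation within groups had a median of 16.1%, and was highest for LINC01512 at 95.1%, LINC01271 at 56.0% and LINC02928 at 52.2%. The members called higher in 0X had a median level of 413 and those not called 73.0, while their GC contents of 47.7% and 47.6% were close. Shared exon bases were found in 51.3% of the members called higher in 0X, in 8 of the 10 called lower and in 43.8% of those not called.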

How the data were processed

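Bulk poly(A) RNA-seq of 10 HEK293T libraries was used. The authors aligned paired 75-base reads to GRCh38 with STAR 2.7.10b, counted them on Ensembl genes (featureCounts in the study's methods, HTSeq in the submitters' processing notes) and divided counts by DESeq2 size factors. The deposited values are therefore a signal, here called normalized counts, and 100% of them were whole multiples of the value of 1 read to within 0.01 reads. The Ensembl release and strand setting are not given in the sources used here. The methods state that reads over several genes were discarded, yet X and Y copies carry identical reads.

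Log2 of the value plus 1 was fitted with limma 3.58.1 (trend, R 4.3.3) for genes at 10 or more in at least 3 libraries, each comparison with its own groups, 2-sided, Benjamini-Hochberg adjusted over 29045 genes and called at 0.01. The script was tested on simulated data. With 2 against 4 libraries an exact permutation test cannot go below 0.067, and with 4 against 4 below 0.029. Counts of replicate libraries differed by a chi-square of 3.53 to 14.7 per degree of freedom, so none were duplicates, and counting errors are smaller than the spread between libraries. Annotation is GENCODE 44, which held 61463 of the IDs, and sequences are from RefSeq, GRCh38.p14.

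Members and lists were chosen with earlier results of these data known. Named are the 8 largest increases and decreases called without overlap in 0X and in 10X, the 8 highest levels and 5 highest per kilobase, 3 members on each side of the limit of 20, up to 8 called in opposite and 8 in the same direction in both comparisons, the 3 most variable, and coding neighbours within 5 kb. Alternatives were other pseudocounts, filters, scalings, thresholds and member limits, a joint fit of all media, a block for the replicate number, each library left out, DESeq2 1.42.0 and edgeR 4.0.16, and members sharing no exon bases. The restriction to members with few copied windows was added after seeing the data. A kidney marker of the list fixed for the tissue check is not reported here.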

Additional observations from a re-analysis of the deposited data

Results flagged for a closer look

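For the 54 named LINC RNAs 108 groups of 4 libraries were examined, and in 8 of them a single library stood apart from the other 3 by more than Dixon's 95% limit, where chance alone gives about 5. The ratio of the gap to the whole range is given for each.

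In 1X replicate 4 stood apart for 4 genes. LINC02182 had 11.0 there against 5.25 to 6.18 in the others (ratio 0.838), LINC02585 200.8 against 138 to 139.7 (0.974), LINC02664 40.6 against 14.8 to 18.9 (0.842), and LINC01128 1711 against 1544 to 1558 (0.915). Replicate 3 of 1X was apart for LINC00638, with 114 against 94.5 to 97.7 (0.837), and for LINC02928, with 41.6 against 12.6 to 14.8 (0.924). Replicate 2 of 1X was apart for LINC00622, with 22.2 against 8.78 to 10.5 (0.872). In 10X replicate 2 had 8.69 for LINC01144 against 25.5 to 28.2 in the others (0.859).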

How the results depend on the processing

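In 0X against 1X 49 members were called, and 4 with no filter on low values, 82 at an adjusted p of 0.05, 14 with a 2-fold change as well, 21 without members sharing exon bases and 14 without copied windows as well. Leaving out each library gave 11 to 60. In 10X against 1X, with 134, the same settings gave 76 with no filter, 56 with 2-fold, 70 and 55, and leaving out libraries 117 to 134. In 10X against 0X, with 158, they gave 56, 71, 86 and 69, and 126 to 154. The smaller sets of members give fewer calls by construction. For the lack of a filter the cause was not tested.

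All other settings kept the counts within 1.5 times. edgeR called 52, 138 and 156 and DESeq2 53, 142 and 144. With the replicate block 64, 136 and 137 were called. Same-numbered libraries had correlations of their deviations between -0.12 and 0.10, so they share only a number. Of the 56 changes of named members 24 kept their call under every alternative that refits the model and 32 lost it under some, 31 of them with no filter, and none reversed. The low depth of members near 20 limits what could be called there.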
